A study of Mus musculus with 6 samples.

Results

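Fos, Fosb, Fosl2, Jun, Junb, Jund, Nr4a1, Nr4a2, Nr4a3 and Npas4 encode transcription factors whose genes neurons switch on with activity or, as with Jund, keep on. They were picked by name from a table of 51826 mouse genes, and all 10 were found and carried enough counts to be tested. RNA was sequenced from brain tissue labelled as the paraventricular nucleus of the hypothalamus, in 3 libraries of wild-type animals (WT) and 3 of animals labelled as a glutamatergic neuronal ADAM17 knockout (KO). ADAM17 is a membrane protease that releases growth factors and cytokines from the cell surface, and the stated question was what its loss in these neurons does to gene expression in the nucleus. Each genotype has 2 male libraries, called WT 1, WT 2, KO 1 and KO 2, and 1 female library, called WT F1 and KO F1. The driver of the knockout, the age and strain of the mice, any treatment and whether a library is 1 animal or a pool were not stated in the labels used here. The label limits the knockout to glutamatergic neurons, whereas the RNA came from whole tissue, in which the gene was not targeted in other cells. In such bulk RNA, fewer cells that express a gene and less RNA of that gene per cell cannot be told apart.

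AP-1 is a dimer of a FOS protein (FOS, FOSB or FOSL2 here) and a JUN protein (JUN, JUNB or JUND), joined through leucine zippers. FOS proteins bind DNA only with a partner, while JUN proteins can also pair among themselves. The NR4A proteins are orphan nuclear receptors whose activity is thought to follow their amount rather than a bound hormone. NPAS4 is a neuron-specific bHLH-PAS factor that calcium entry induces and that works as a dimer with ARNT or ARNT2. In the hypothalamus, as elsewhere in brain, FOS is widely used as a mark of recently active neurons.

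The 6 libraries held between 35114426 and 54421330 counts, and the 10 genes between 373 and 11713 counts each per library, the fewest being Nr4a3 in WT 1, where the 95% Poisson interval around 8.24 CPM ran from 7.42 to 9.12. KO 1 stood apart, with 20.6% of its counts on mitochondrially encoded genes against 7.22% to 9.20% in the other 5. Adam17 itself stood at 17.1, 17.2 and 15.6 CPM (counts scaled to a common library total) in WT 1, WT 2 and WT F1 and at 15.4, 14.5 and 13.9 CPM in KO 1, KO 2 and KO F1. All 3 KO values lay below all 3 WT values, but the difference did not pass the test (log2 fold change −0.19, SE 0.11, edgeR adjusted p = 0.747). The defining genes of the labelled nucleus were present and uneven. In the authors' deposited TPM, a level per transcript length, Avp ranged from 13.4 to 158, Oxt from 15.8 to 122 and Sim1 from 0.18 to 1.08. On the same scale Slc17a7, the vesicular glutamate transporter typical of cortex and hippocampus, ranged from 341 to 745, and Slc17a6, the one typical of hypothalamus and thalamus, from 18.2 to 72.7. The tissue is therefore called by its label only.

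The stretch just before the transcription start of these genes shows what many of them share in sequence. Below are the 250 bases before the RefSeq start (build GRCm38.p6), 5′ to 3′ on the strand of the gene, for the genes on which the results turn. Fosb, Nr4a1 and Npas4 had the smallest p-values between the genotypes, Jun and Nr4a2 were the pair whose genotype difference changed most from males to females, and Fos is the most widely used activity marker. Capitals mark TGACG, one side of the cAMP response element (CRE) that CREB binds, in either direction, so that it also reads CGTCA.
Fosb: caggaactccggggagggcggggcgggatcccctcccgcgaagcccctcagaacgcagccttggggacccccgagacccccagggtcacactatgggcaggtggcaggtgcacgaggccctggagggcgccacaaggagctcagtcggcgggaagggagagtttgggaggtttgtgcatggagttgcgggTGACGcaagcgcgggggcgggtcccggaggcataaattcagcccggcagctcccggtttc
Nr4a1: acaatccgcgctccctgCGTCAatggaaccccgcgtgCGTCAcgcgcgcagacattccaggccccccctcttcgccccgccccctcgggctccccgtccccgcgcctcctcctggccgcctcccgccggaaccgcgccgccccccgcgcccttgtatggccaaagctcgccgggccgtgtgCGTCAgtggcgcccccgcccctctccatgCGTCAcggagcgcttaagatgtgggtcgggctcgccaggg
Npas4: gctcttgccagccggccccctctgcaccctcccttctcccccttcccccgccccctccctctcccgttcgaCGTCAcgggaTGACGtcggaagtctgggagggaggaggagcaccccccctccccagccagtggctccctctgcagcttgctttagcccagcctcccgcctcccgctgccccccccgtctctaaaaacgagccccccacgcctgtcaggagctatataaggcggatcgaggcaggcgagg
Fos: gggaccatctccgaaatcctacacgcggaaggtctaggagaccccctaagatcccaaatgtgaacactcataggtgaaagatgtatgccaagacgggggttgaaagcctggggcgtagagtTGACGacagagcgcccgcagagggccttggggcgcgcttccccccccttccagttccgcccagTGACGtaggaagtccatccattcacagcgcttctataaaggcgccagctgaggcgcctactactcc
Jun: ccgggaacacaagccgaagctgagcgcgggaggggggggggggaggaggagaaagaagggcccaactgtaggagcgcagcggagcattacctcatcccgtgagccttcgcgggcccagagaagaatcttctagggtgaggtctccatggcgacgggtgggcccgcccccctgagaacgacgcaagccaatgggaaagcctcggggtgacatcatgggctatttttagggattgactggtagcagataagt
Nr4a2: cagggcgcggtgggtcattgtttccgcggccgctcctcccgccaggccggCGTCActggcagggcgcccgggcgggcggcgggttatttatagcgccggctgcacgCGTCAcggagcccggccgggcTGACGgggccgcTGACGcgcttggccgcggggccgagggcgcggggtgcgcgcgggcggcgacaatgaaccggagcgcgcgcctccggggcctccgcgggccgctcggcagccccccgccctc

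The windows lie at chr7:19310046-19310295 for Fosb, chr15:101266596-101266845 for Nr4a1, chr19:4989972-4990221 for Npas4, chr12:85473640-85473889 for Fos, chr4:95052223-95052472 for Jun and chr2:57124004-57124253 for Nr4a2. Fosb, Npas4, Jun and Nr4a2 are on the minus strand, and Fos and Nr4a1 on the plus strand. TGACG was found in 7 of the 10 genes, against 17.8% of 32851 mouse promoter windows of the same length searched on both strands. Fos held 2 copies, 129 and 66 bases before the start, Fosb 1, Junb 1, Npas4 2, and Nr4a1, Nr4a2 and Nr4a3 4 each. Fosl2, Jun and Jund held none in their windows. For Jund the RefSeq start lies 1210 bases and for Fosl2 671 bases from the start in the deposited table, so their windows may not be the ones these counts belong to. In Fosb and Nr4a1 the element is part of TGCGTCA, which 1.75% of all windows hold and which occurs 4 times in Nr4a1. The full CRE TGACGTCA (1.55% of all windows), the AP-1 site TGANTCA (6.75%), the NR4A site AAAGGTCA (1.34%) and the CArG box (1.47%) were in none of the 10 windows. TATAAA was in Fos and Nr4a2, against 12.4% of all windows. These searches, on both strands, took only the strict form of each site within 250 bases. Variant sites, of the CArG box among others, and sites further upstream were not searched. The searches describe letters in a window and say nothing of binding.

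In KO tissue all 10 genes lay above their WT level on average, by between 1.04-fold for Fosl2 and 1.66-fold for Nr4a2, but none passed the test over all genes. Fosb, Nr4a1 and Npas4 had the smallest p-values, at about 1.5-fold, and Fosl2 lay close to 0. Levels are given as CPM after scaling libraries with TMM, the trimmed mean of M values, and differences come from edgeR's quasi-likelihood test with genotype and sex as terms, adjusted by the Benjamini-Hochberg method over 18956 genes. At an adjusted p under 0.05 edgeR called 1 gene in all, or 0.00528%, higher in KO. It was Noct, which encodes nocturnin and is not 1 of the 10, named here after its values were seen (log2 fold change 1.996, SE 0.11, adjusted p = 0.0152). The median of the 10 log2 fold changes was 0.42, beside −0.004 over all genes tested, and 49.4% of all genes lay above 0. At an unadjusted p under 0.05, 3 of the 10 were higher, against 3.85% of all genes, and 0 were lower, against 2.53%. The 10 genes were measured in the same libraries, so their directions are not separate observations. Without KO 1 all 10 still lay above 0, from 0.17 for Fosl2 to 0.59 for Nr4a2 and Npas4. In that fit 6 of the 10 had an unadjusted p under 0.05, beside 1656 of 19528 genes in either direction. Of the 10, 0 passed the threshold. Values per library for all 10 are plotted below, with the zero of each axis kept.

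**Figure D1:**
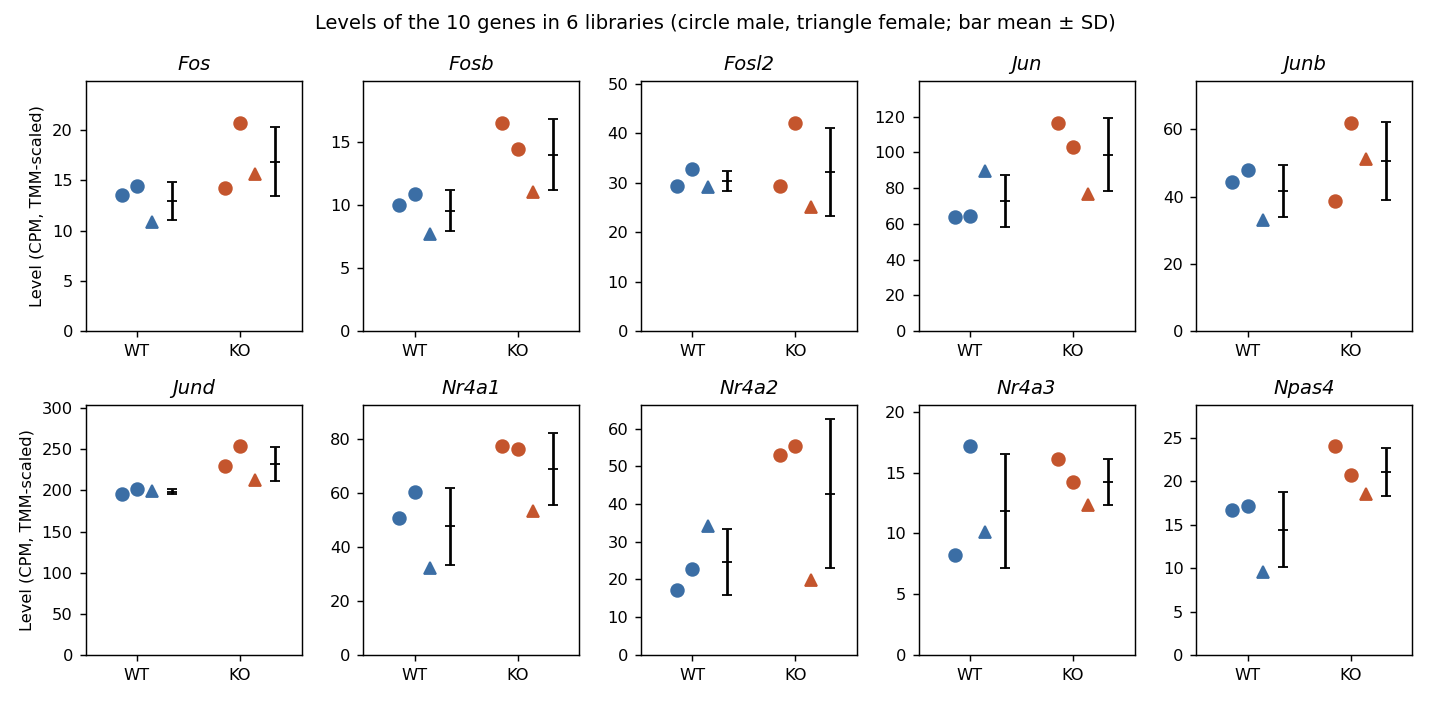
Level of each gene (CPM, TMM-scaled, vertical axis from 0) in the 3 WT and 3 KO libraries, circles for males and triangles for females, with the mean ± SD of each group beside them. The KO values of Fosb, Jund and Npas4 all lie above the WT values, and Jun and Nr4a2 show the WT female above the KO female.

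Among the FOS genes, Fosb showed the clearest separation. Fosb (ENSMUSG00000003545, chr7:19302696-19310051, minus strand), whose stable short protein form builds up with repeated activity, stood at 10.1, 10.9 and 7.76 CPM in WT 1, WT 2 and WT F1 and at 16.6, 14.5 and 11 CPM in KO 1, KO 2 and KO F1. The KO values all lay above the WT values, although KO F1 and WT 2 differed by less than the width of their 95% Poisson intervals (10 to 12.1 and 9.91 to 11.9 CPM). The log2 fold change was 0.55 (SE 0.12, edgeR adjusted p = 0.735), ranking 57th by p among all genes tested. It stayed between 0.49 and 0.60 when any 1 library was left out.

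Fos (ENSMUSG00000021250, chr12:85473890-85477273, plus strand), the classic activity marker, stood at 13.5, 14.4 and 10.8 CPM in WT and at 14.2, 20.7 and 15.6 CPM in KO, in the same order of libraries. KO 2 was high, WT F1 was low, and KO 1 lay between WT 1 and WT 2, so the groups overlapped. The means were 12.9 ± 1.89 and 16.8 ± 3.43 CPM (SD, n = 3 each), with a log2 fold change of 0.39 (SE 0.17, edgeR adjusted p = 0.735). Without KO 2 it was 0.24 and without KO 1 it was 0.55. Fosl2 (ENSMUSG00000029135, chr5:32135801-32157842, plus strand), a FOS relative without a strong activation domain, stood at 29.4, 32.7 and 29.1 CPM in WT and at 29.3, 42.1 and 25.1 CPM in KO. KO 2 was its highest library and KO F1 its lowest, and the difference of 0.06 (SE 0.17, adjusted p = 0.934) was smaller than its error. It turned to −0.14 without KO 2 and to −0.02 without WT 1.

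Of the JUN genes Jund was the most even. Jund (ENSMUSG00000071076, chr8:70698949-70700616, plus strand), the family member that is expressed steadily in resting cells, stood at 195, 202 and 199 CPM in WT and at 229.6, 253.5 and 213 CPM in KO. All 3 KO values lay above a narrow WT range, at 199 ± 3.10 and 232 ± 20.5 CPM (SD, n = 3 each). The difference of 0.22 (SE 0.10, edgeR adjusted p = 0.735) did not pass. Jun (ENSMUSG00000052684, chr4:95049034-95052222, minus strand), the strongest activator of the family, stood at 64.0, 64.5 and 89.6 CPM in WT and at 116.6, 103 and 76.6 CPM in KO. The male KO libraries were the highest and the male WT libraries the lowest, with the females reversed in between. Its log2 fold change was 0.44 (SE 0.21, adjusted p = 0.735), at 0.77 without either female and 0.31 without KO 1. Junb (ENSMUSG00000052837, chr8:84976910-84978718, minus strand), which can restrain JUN, stood at 44.3, 47.9 and 33.0 CPM in WT and at 38.8, 61.9 and 51.2 CPM in KO. KO 1 lay below WT 1 and WT 2, so the groups overlapped, and the log2 fold change was 0.30 (SE 0.20, adjusted p = 0.772). It was 0.52 without KO 1 and 0.13 without WT F1. Jun overlaps Junos and Jund overlaps Gm11175 on the opposite strand. Whether counting used the strand was not stated in the labels used here, but these partners held only 21 to 57 and 77 to 123 counts.

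Nr4a1 had the smallest p-value of the 10, ranking 44th by p among all genes tested. Nr4a1 (ENSMUSG00000023034, chr15:101266846-101274792, plus strand), also called Nur77 and induced by calcium, stress and corticotropin-releasing hormone, stood at 50.7, 60.3 and 32.2 CPM in WT and at 77.3, 76.2 and 53.5 CPM in KO. The male KO libraries exceeded both male WT libraries and the female KO the female WT, but KO F1 lay below WT 2. The means were 47.7 ± 14.3 and 69.0 ± 13.5 CPM (SD, n = 3 each), and the log2 fold change was 0.56 (SE 0.12, edgeR adjusted p = 0.735). DESeq2 called it (0.56, adjusted p = 0.0306), as it did 0.285% of genes in the higher direction, and called no other of the 10, with adjusted p = 0.0714 for Fosb and 0.169 for Npas4. Leaving out WT F1 and KO 1 together, with no sex term, brought the log2 fold change of Nr4a1 to 0.23, that of Npas4 to 0.22 and that of Fosb to 0.29.

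Nr4a2 (ENSMUSG00000026826, chr2:57106830-57124003, minus strand), or Nurr1, which midbrain dopamine neurons need and which claustrum and deep cortical layers also express, had the largest mean difference and the largest spread. It stood at 17.1, 22.7 and 34.3 CPM in WT and at 53.0, 55.3 and 20 CPM in KO. The male KO libraries were above every other, while KO F1 lay below WT 2 and WT F1. Its log2 fold change was 0.73 (SE 0.49, edgeR adjusted p = 0.772), and the values without 1 library ran from 0.34 without WT 1 to 1.44 without either female. Nr4a3 (ENSMUSG00000028341, chr4:48045153-48086447, plus strand), or Nor1, stood at 8.24, 17.2 and 10.2 CPM in WT and at 16.2, 14.3 and 12.4 CPM in KO. WT 2 was its highest library, so that the KO values lay within the WT range, and its log2 fold change of 0.27 (SE 0.26, adjusted p = 0.82) moved between 0.02 without WT 1 and 0.62 without WT 2.

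Npas4 (ENSMUSG00000045903, chr19:4984355-4989971, minus strand), the most neuron-restricted of the group, stood at 16.7, 17.1 and 9.51 CPM in WT and at 24.0, 20.7 and 18.6 CPM in KO. All KO values lay above all WT values, and WT F1 was far below the rest. The means were 14.5 ± 4.29 and 21.1 ± 2.74 CPM (SD, n = 3 each), with a log2 fold change of 0.59 (SE 0.16, edgeR adjusted p = 0.735), ranking 147th by p. Groups that did not overlap, with KO higher, were found for 3 of the 10, Fosb, Jund and Npas4, against 6.61% of all genes, and with KO lower for none, against 7.32%. For these 3 the two-sided exact permutation test over the 20 splits of 3 and 3 libraries gave p = 0.1, the smallest it can give, and for the other 7 it gave 0.2 to 0.9.

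The spread among libraries differed widely between the genes. The biological coefficient of variation fitted by edgeR was 11.8% for Jund, 13.9% for Nr4a1, 14.8% for Fosb and 16.6% for Npas4, but 38.9% for Nr4a2 and 24.6% for Nr4a3. Fosb, Nr4a1 and Npas4 ordered the libraries alike at the ends, each lowest in WT F1 and highest in KO 1. Jun and Nr4a2 shared another order, with KO 1 and KO 2 highest, WT F1 next and KO F1 below it. Fos, Fosl2, Junb and Jund had their highest level in KO 2.

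The sexes were compared within the same fit, with 4 male and 2 female libraries. In females, 9 of the 10 genes lay lower than in males, Jun being the exception at 0.01, beside 50.1% of all genes below 0, and the median was −0.28 beside −0.001 over all genes. None passed by edgeR, in a comparison that called 8 genes, or 0.0422%. Nr4a1 (log2 difference, female minus male, −0.65, SE 0.13, edgeR adjusted p = 0.838), Npas4 (−0.54, SE 0.17) and Fosb (−0.46, SE 0.13) were lower in females at an unadjusted p under 0.05, against 2.63% of all genes. For Nr4a1 DESeq2 gave an adjusted p of 0.00844, in a comparison where it called 0.274% of genes. With 1 female library in each genotype, this difference rests on WT F1 and KO F1 alone.

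The genotype difference ran in opposite directions in the sexes for 3 genes. In males, KO lay above WT for all 10, with a median log2 difference of 0.36. In females it did so for 7 of 10, with a median of 0.38, and for Fosl2 (−0.21), Jun (−0.23) and Nr4a2 (−0.77) the KO female lay below the WT female. For Nr4a2 the male difference was 1.43, and the female minus the male difference was −2.22 (SE 0.31). Its adjusted p was 0.148 by edgeR, in a comparison that called 14 genes, or 0.0739%, and 2.03e-06 by DESeq2, which called 1.25% of genes. For Jun the male difference was 0.77, and the female minus the male difference was −0.999 (SE 0.22, edgeR adjusted p = 0.316). These were 2 of the 10 at an unadjusted p under 0.05, against 7.42% of all genes. The other 8, Npas4 among them at 0.57, were above that. The test has 2 residual degrees of freedom and 1 female library a genotype. Over all genes, 10.6% had both male KO libraries above both male WT libraries and the KO female below the WT female. Jun and Nr4a2 had this order, but Fosl2 did not, as its KO 1 lay just below WT 1. How many of all genes differ in sign between the sexes was not counted, so the 3 genes have no such share beside them.

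**Figure D2:**
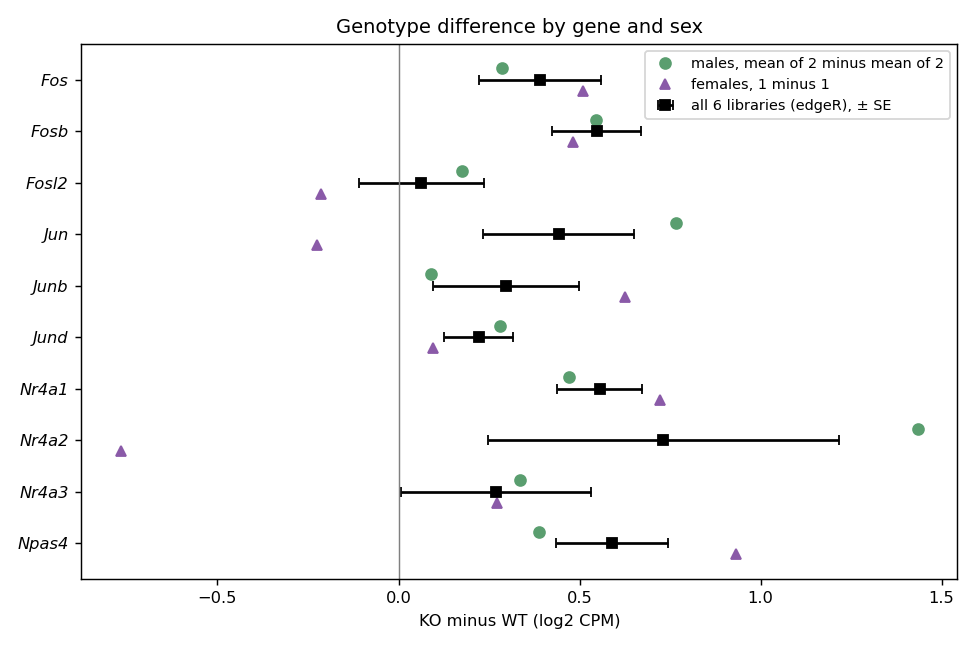
Genotype difference (KO minus WT, log2 CPM, horizontal axis) of each gene in all 6 libraries with its SE (squares), in males (circles) and in females (triangles). Nr4a2 and Jun lie far to the right of 0 in males and to the left of it in females, whereas Fosb and Nr4a3 lie close together in both sexes.

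To set the genes beside each other, levels per transcript length were recomputed as TPM from the deposited counts and GENCODE M21 exon lengths, because the deposited TPM of Junb was listed at 0 in WT 1 and at 0.207 in KO 1 although those libraries held 2005 and 1116 counts of it. Jund was the most abundant, at 391 ± 5.84 TPM in WT and 362 ± 102 TPM in KO (SD, n = 3 each). Jun at 74.8 ± 15.6, Junb at 59.4 ± 10.7 and Nr4a1 at 44.6 ± 13.1 TPM followed in WT. These 3 levels lay within about 1 SD of their neighbours in this order. For Junb, Nr4a1 and Npas4 the GENCODE M21 coordinates differ from the deposited ones, so their lengths, levels and shares are less certain. Junb reaches to chr8:84974484 in GENCODE M21 but only to 84976910 in the deposited table. Its level and share, computed with 2301 exon bases, may therefore be too low. Nr4a2 at 20 ± 7.19 and Fos at 18 ± 2.52 TPM did not differ beyond their spread, nor did Npas4 at 11.4 ± 3.34 and Fosl2 at 10.3 ± 0.623 TPM, or Nr4a3 at 6.49 ± 2.54 and Fosb at 5.03 ± 0.821 TPM. TPM also counts mitochondrial RNA, and KO 1 had the lowest TPM of the KO libraries for 9 of the 10 genes, so these levels compare genes and not genotypes.

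The make-up of the AP-1 pool does not depend on the scaling of libraries. Jund took 70.2%, 69.8% and 69.9% of the summed TPM of the 6 FOS and JUN genes in WT and 67.9%, 67.0% and 69.0% in KO. Every KO library lay below every WT library, by 2.0 percentage points on average (70.0 ± 0.202% against 68.0 ± 0.987%, two-sided exact permutation p = 0.1, the smallest possible, and 0.75 adjusted over the 9 shares). Jun took 12%, 11.7% and 16.5% in WT and 18%, 14.3% and 13.0% in KO, with overlap. Junb took 8.40% to 12% in WT and 8.31% to 12% in KO. The 3 FOS genes were a small part, Fos at 2.70% to 3.89%, Fosl2 at 1.40% to 1.95% and Fosb at 0.729% to 1.31% over the 6 libraries. In recomputed TPM, JUN transcripts outnumbered FOS transcripts 15.0, 14.4 and 18.3 times in WT and 16.3, 13.6 and 15.8 times in KO. The genotypes did not separate. The size of these shares and ratios depends on the TPM used. On deposited TPM without WT 1 and KO 1, where Junb failed, each FOS gene took a larger share in every library. Fosb took 1.46% to 1.83% and Fosl2 1.98% to 2.78% there, so JUN outnumbered FOS by less. Junb took 10.2% to 14.5% on that scale, also a larger share in each of these libraries. Within the NR4A genes, Nr4a1 took 72.1%, 67.0% and 47.5% in WT and 58.3%, 57.6% and 68.6% in KO. Nr4a2 took 21.1%, 21.8% and 43.7% in WT and 34.5%, 36.1% and 22.1% in KO, so that WT F1 and the KO males shared the higher portion, and Nr4a3 took 6.32% to 11.2%.

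**Figure D3:**
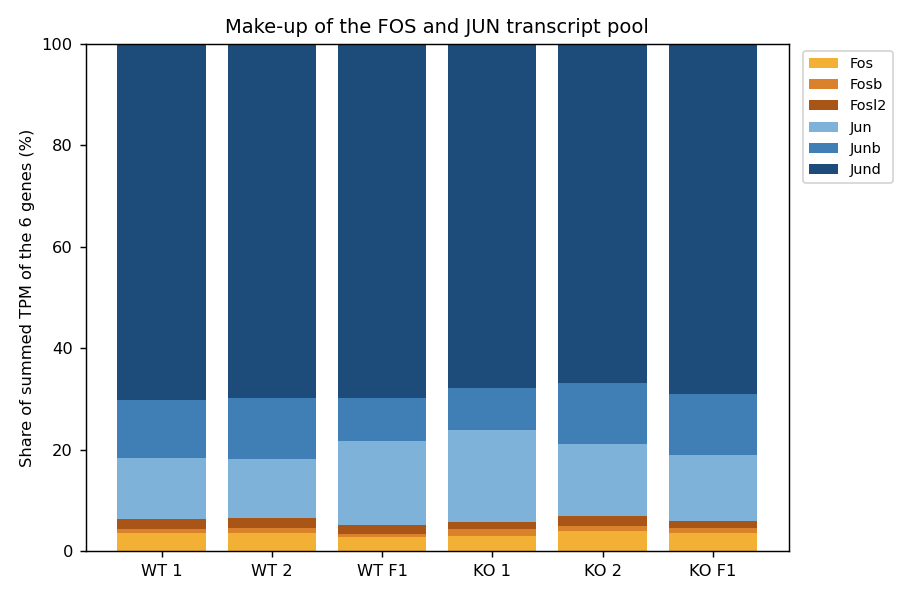
Share of each gene (%, vertical axis from 0 to 100) in the summed recomputed TPM of the 6 FOS and JUN genes, 1 bar for each library. Jund fills between 67.0% and 70.2% of every bar, and the Jun share is widest in KO 1 and WT F1.

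Of the transcription factors and coactivators upstream of these genes 17 of 17 lay above 0, beside 49.4% of all genes, and their median log2 fold change was 0.26, while none passed over all genes by edgeR or DESeq2. At an unadjusted p under 0.05 there were 5, all higher, against 3.85% of all genes. Mef2d, a calcium-responsive MEF2 factor, averaged 258 ± 25.3 CPM over the WT and 324 ± 48.6 CPM over the KO libraries (SD, n = 3 each; 0.32, SE 0.09, edgeR adjusted p = 0.735). Elk1, which carries growth factor signals to the Fos promoter with SRF, differed by 0.28 (SE 0.10). Creb1 (0.28), Srf (0.07) and the coactivators Crebbp (0.22) and Crtc1 (0.09) had an unadjusted p above it. Their summed level was 1554, 1609 and 1328 CPM in WT 1, WT 2 and WT F1 and 2003, 1821 and 1634 CPM in KO 1, KO 2 and KO F1, lowest in WT F1 and highest in KO 1, the library with 20.6% mitochondrial counts, whose part in it was not tested. Of 5 dimer partners of NPAS4 and the NR4A proteins, 2 lay above 0 with a median of −0.02, and none had an unadjusted p under 0.05. Arnt (−0.02) and Arnt2 (0.09) lay near 0. Of the retinoid receptors, Rxrb (−0.16, SE 0.20) and Rxra (−0.14, SE 0.18) lay below 0 and Rxrg (0.205, SE 0.29) above it.

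Of 14 other leucine zipper genes related to AP-1, 13 were tested, 8 above 0, 4 below and Atf4 at 0.00, with a median of 0.11. Batf, an AP-1 partner known from immune cells, was at most 0.466 CPM in any library. Atf3, a stress-induced relative, lay at −0.65 (SE 0.34).

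The other immediate early genes lay mostly above 0, with 21 of 25 above 0 (49.4% of all genes), a median of 0.24, and 8 of 25 higher at an unadjusted p under 0.05 (3.85% of all genes). None passed by edgeR, and DESeq2 called 2, where it called 0.285% of all genes higher. Egr2, a zinc finger factor, stood at 3.67, 4.88 and 2.12 CPM in WT and at 10.2, 10.5 and 4.02 CPM in KO (1.16, SE 0.18, DESeq2 adjusted p = 9.73e-05). Egr3 stood at 67.6, 81.3 and 32.2 CPM in WT and at 109, 103 and 70.4 CPM in KO (0.71, SE 0.16, DESeq2 adjusted p = 0.0338). For both, KO F1 lay below WT 2, and WT F1 was the lowest library, as for Nr4a1. Arc (0.01), Btg2 (−0.01) and Ier5 (−0.01) lay near 0. Late activity-response genes, which such factors switch on, had 14 of 15 above 0 with a median of 0.19, beside 49.4% and −0.004 over all genes. In this list 3 were higher at an unadjusted p under 0.05, against 3.85% of all genes, and none passed by edgeR or DESeq2. Ptgs2, the inducible cyclooxygenase, stood at 10.2, 11 and 9.71 CPM in WT and at 20.3, 18.4 and 12.1 CPM in KO (0.69, SE 0.16, edgeR adjusted p = 0.735). Penk, which encodes enkephalin and is also in the striatum list, differed by 0.62 (SE 0.21), and Bdnf by 0.19 (SE 0.19).

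Genes induced by dissection and heat stress had 9 of 14 above 0, against 49.4% of all genes, with a median of 0.07. In this list 2 had an unadjusted p under 0.05, against 6.38% of all genes in either direction. Zfp36, which shortens the life of early-response mRNAs, was the higher one, at 5.16 ± 0.523 CPM over the WT and 6.83 ± 0.533 CPM over the KO libraries (0.40, SE 0.15). Hspa5, the endoplasmic reticulum chaperone, was the lower one, at 135 ± 10.8 and 108 ± 10.8 CPM (−0.32, SE 0.10, edgeR adjusted p = 0.735 for both; SD, n = 3 each).

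The genes most like the mean of the 10 in their course over the 6 libraries, among 13754 genes with a mean of at least 1 CPM, were Rtn4rl2 (Pearson r = 0.998), Ythdf1 (0.995), Fkbp1b (0.995), Trim8 (0.993) and Id2 (0.992). This is a description of 6 libraries that share scaling and tissue, and 204 of the 13754 genes reached an r above 0.9. Rtn4rl2 stood at 30.7, 37.0 and 28.7 CPM in WT and at 44.7, 54.9 and 36.0 CPM in KO (0.48, edgeR adjusted p = 0.735).

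Regional markers moved over the same libraries. Their mean log2(CPM + 0.5) was 5.86, 5.92 and 5.55 for the cortex and hippocampus list in WT 1, WT 2 and WT F1, and 6.38, 6.02 and 5.81 in KO 1, KO 2 and KO F1. The same mean for the 10 activity factors was 4.83, 5.05 and 4.75 in WT and 5.36, 5.47 and 5 in KO. WT F1 was lowest and the KO males highest in both. Of the cortex and hippocampus list 13 of 14 were above 0, against 49.4% of all genes, the median log2 fold change being 0.33. In it 5 were higher at an unadjusted p under 0.05, against 3.85% of all genes, among them Emx2 (0.46, SE 0.14) and Neurod6 (0.44, SE 0.13). Its summed level was 1330 to 2320 CPM in WT and 2220 to 2960 CPM in KO, and none of its genes was at 0 in any library. Pan-neuronal genes had 7 of 10 above 0 with a median of 0.12, and 3 were higher at an unadjusted p under 0.05, beside the same shares of all genes. Rbfox3 (0.34, SE 0.09) and Syt1 (0.30, SE 0.10) came first, and the list summed to 6800 to 7920 CPM in WT and 8040 to 9880 CPM in KO. The part of tissue make-up in the differences of the activity factors was not tested.

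**Figure D4:**
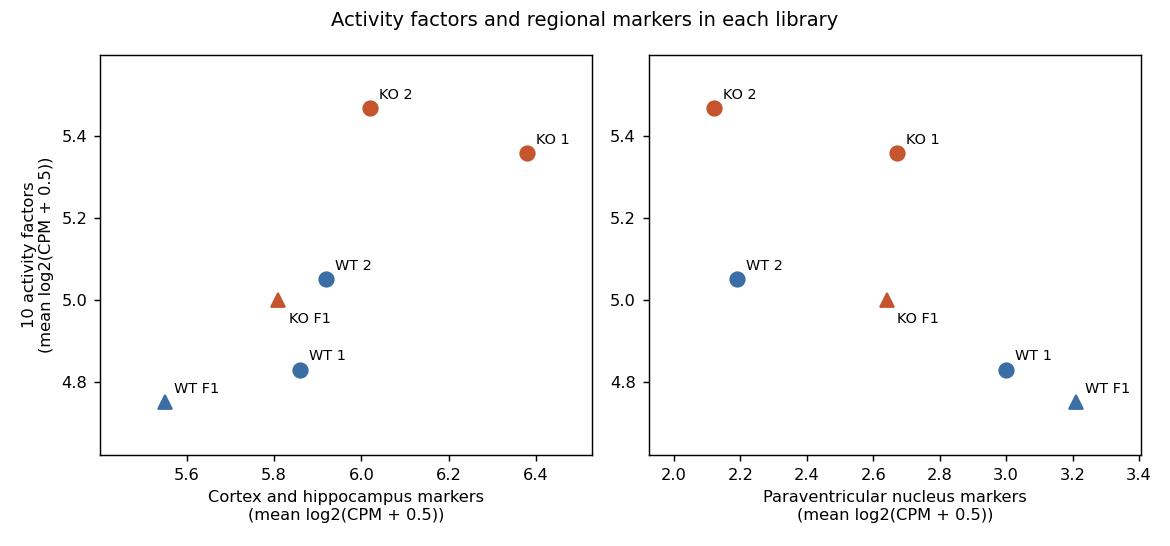
Mean log2(CPM + 0.5) of the 10 activity factors (vertical axis) against that of the cortex and hippocampus list (left) and the paraventricular nucleus list (right), 1 point for each library, circles for males and triangles for females. WT F1 lies lowest on the vertical axis at 4.75, with the lowest cortical and the highest paraventricular value, and KO 1 and KO 2 lie highest.

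The paraventricular list ran the other way in WT F1. It had 3 of 9 above 0 with a median of −0.25 and summed to 66.6 to 133.8 CPM in WT and 64.6 to 90.6 CPM in KO, with Avp at −1.36 (SE 0.56) and Oxt at −1.17 (SE 0.58), both overlapping between the genotypes. Over all genes 49.4% lay above 0, and 3.85% were higher at an unadjusted p under 0.05. The striatum list had 11 of 12 above 0 with a median of 0.37, 1 of them at an unadjusted p under 0.05. This list summed to 756 to 2240 CPM in WT and 1680 to 2090 CPM in KO. Its second gene by p was Six3 (0.90, SE 0.39). The thalamus list had 6 of 9 above 0 with a median of 0.14 and none under 0.05, at 223 to 275 CPM in WT and 171 to 448 CPM in KO, led by Lef1 (0.50, SE 0.39) and Plekhg1 (0.38, SE 0.32).

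Beside Nr4a2 stand the genes of the cell types that carry it, listed after its values had been seen. Claustrum and deep cortical layer genes summed to 145, 140 and 144 CPM in WT and 164, 196 and 143 CPM in KO. In this list 6 of 6 lay above 0, against 49.4% of all genes, with a median of 0.22. Cplx3 was the one higher at an unadjusted p under 0.05 (0.53, SE 0.13), against 3.85% of all genes, and Gnb4 was next (0.34, SE 0.21). Dopamine neuron genes summed to 35.6, 24.1 and 139 CPM in WT and 35.9, 38.4 and 20.5 CPM in KO, and all 5 tested lay below 0 with a median of −0.59, led by Ddc (−0.91, SE 0.39) and Slc18a2 (−0.59, SE 0.60). KO 1 and KO 2, where Nr4a2 was highest, were also highest in the first sum, and WT F1, where it was higher than in KO F1, stood alone in the second. Their part in the course of Nr4a2 was not tested.

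Glial, vascular and blood lists lay near 0 in the median, and over all genes 49.4% lay above 0. Microglia markers had 4 of 12 above 0 with a median of −0.09 and summed to 354 to 395 CPM in WT and 311 to 410 CPM in KO. Among them P2ry12, a purine receptor, averaged 16.1 ± 6.09 CPM over the WT and 28.2 ± 5.65 CPM over the KO libraries (SD, n = 3 each; 0.86, SE 0.18, edgeR adjusted p = 0.735, DESeq2 adjusted p = 0.0132). Astrocyte markers had 4 of 9 above 0 (median −0.01, 3760 to 3830 and 3620 to 4750 CPM), with Sox9 at 0.42 and Slc1a2 at 0.26. Oligodendrocyte markers had 3 of 10 above 0 (median −0.09, 3440 to 3900 and 3260 to 3740 CPM), with Cnp at −0.27 and Mog at −0.21. Endothelial and mural markers had 5 of 9 above 0 (median 0.03, 377 to 453 and 403 to 447 CPM), with Abcc9 at 0.34 and Rgs5 at 0.27. Ependyma and choroid plexus markers had 3 of 8 above 0 (median −0.05, 182 to 750.0 and 343 to 432 CPM), with Foxj1 at −0.37 and Tmem212 at −1.10. Red blood cell genes had 1 of 5 above 0 (median −0.003, 302 to 383 and 190.0 to 542 CPM), with Alas2 at −0.26 and Hbb-bs at −0.15. None of the genes in these 6 lists passed over all genes by edgeR, and P2ry12 alone did by DESeq2.

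Across 20 other ways of fitting the genotype difference, Fosl2 turned negative in 5 settings, Jund did so on both TPM scales, and Nr4a1 passed with DESeq2. The other genes kept their direction but not their size. With library totals alone the median of all genes moved to −0.17, and the 10 ran from −0.09 for Fosl2 to 0.56 for Nr4a2. On log2(TPM + 1) it moved to −0.24, and Fos stood at 0.08, Fosb at 0.13, Jun at 0.14, Nr4a1 at 0.26, Nr4a2 at 0.17, Nr4a3 at 0.02 and Npas4 at 0.27, each with an SE of at least 0.21. With DESeq2 size factors the median stayed at 0.

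**Figure D5:**
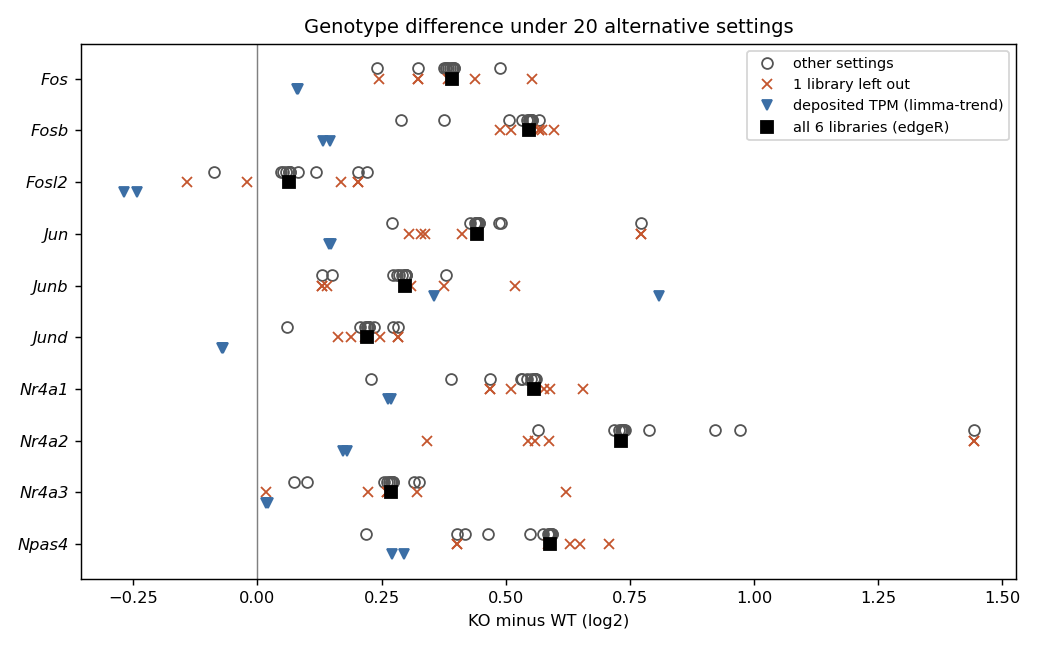
Genotype difference (KO minus WT, log2, horizontal axis) of each gene in the fit of all 6 libraries (squares), with 1 library left out (crosses), on the deposited TPM (triangles) and under the other settings (open circles). Fosl2 and Jund lie on both sides of 0, whereas the other genes stay on the right of it in every setting shown. Among these Nr4a2 runs from 0.17 to 1.44.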

How the data were processed

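Total RNA was made into mRNA-seq libraries, per the labels' protocols. FastQC 0.11.2, Trimmomatic 0.36 and bedtools 2.26.0 are named in the submitters' processing notes. For the aligner, counting tool, strand setting and build, nothing is given in the sources used here. Per the file headers, the authors deposited whole-number counts, TPM and FPKM for 51826 genes in each library. Of their identifiers 99.6% matched GENCODE M21 (GRCm38), 94.2% of these with the same coordinates, so the deposited coordinates are read as GRCm38. FPKM, a constant multiple of TPM in each library as deposited, was only checked.

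Counts were filtered with filterByExpr by genotype (18956 genes), scaled by TMM and fitted with edgeR 4.0.16 (R 4.3.3; robust glmQLFit, glmQLFTest) with genotype and sex as terms, adjusted by Benjamini-Hochberg at 0.05. The interaction fit added their product. SE is the log2 difference over the root of the F statistic. The test was tested on simulated data, in which all genes had the same spread and sex had no effect. DESeq2 1.42.0 and limma 3.58.1 served as alternatives. Shares were planned on deposited TPM, but used TPM recomputed from counts and exon lengths, since deposited Junb values failed in 2 libraries. Where a list symbol had 2 identifiers, the one with more counts was used. Promoter sequences are RefSeq's, and all 10 genes matched.

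The 10 genes, the gene lists and the tests were chosen with earlier results of these data known. In each list, up to 2 genes with the smallest p were named where none passed, and other genes were named after their values were seen. Some genes this rule picked are not reported here. The labels do not say whether libraries are separate animals, so p-values measure the spread between these samples, which may be technical. Poisson intervals cover counting error only. Same-numbered WT and KO libraries did not deviate together, so no pairing was used.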

Additional observations from a re-analysis of the deposited data

Results flagged for a closer look

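The genotype difference of 2 genes differed between the sexes at an unadjusted p under 0.05 in the interaction test. For Nr4a2 the female minus the male difference was −2.224 on the log2 scale (SE 0.31, edgeR adjusted p = 0.148, DESeq2 adjusted p = 2.03e-06), with both male KO libraries above both male WT libraries and the KO female below the WT female. For Jun it was −0.999 (SE 0.22, edgeR adjusted p = 0.316, DESeq2 adjusted p = 0.0625), with the same order of libraries. Each rests on 1 female library a genotype.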

How the results depend on the processing

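For KO against WT, edgeR called 1 gene, and the count was 4 with no filter on low counts, 4 with voom quality weights, 4 on log2(TPM + 1), 5 on log2(TPM + 0.1), 3 with no sex term, 18 in males only, 27 without WT F1 and KO 1 together and with no sex term, 75 with DESeq2 and 0 to 20 with 1 library left out, 20 being without WT F1, 15 without KO F1 and 7 without KO 1. With the replicate number as a block it was 0, and no call among the 10 genes changed. Same-numbered libraries correlated at −0.051, 0.014 and 0.022 in their deviations, so the numbers do not pair them. Of the 10 genes 0 passed, 1 with DESeq2. Between the sexes 8 genes passed, and 52 with DESeq2, with 1 of the 10 (Nr4a1, −0.65). For the interaction 14 passed, 1 with library totals alone and 237 with DESeq2, with 1 of the 10 (Nr4a2). Fosl2 was −0.088 with library totals, −0.24 on log2(TPM + 1) and −0.27 on log2(TPM + 0.1), and ran from −0.14 to 0.20 with 1 library left out. Jund was −0.07 and −0.071 on the same scales, on which the median of all genes moved to −0.24 and −0.29. With library totals alone the sex difference of Jund was 0.026 and the interaction of Fosb 0.098. The causes were not tested. The voom fit gave 8 of the 10 at an unadjusted p under 0.05, beside 1660 of 18956 genes. The fits on log2(TPM + 1) and log2(TPM + 0.1) gave 0 of the 10, beside 1345 and 1238 of 18956 genes. In shares of counts, KO minus WT was 0.54 points for Fosb and −1.15 for Fosl2, against 0.196 and −0.241 in recomputed TPM. On deposited TPM without WT 1 and KO 1, where Junb failed, KO minus WT was 0.74 points for Fos, 9.67 for Nr4a1 and −8.90 for Nr4a2. In recomputed TPM of all 6 libraries these were 0.255, −0.712 and 2.07. Scale and libraries both changed there, so their parts cannot be told apart. Dropping a female library, with the sex term kept, gives the male contrast.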
